A study of Mus musculus with 35 samples.

Results

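The transcripts of 9 genes that are widely used to identify GABAergic interneurons were followed through amygdala samples of mice. The genes were Gad1, Gad2, Slc32a1, Pvalb, Vip, Reln, Lamp5, Calb1 and Calb2. They were chosen by symbol, matched to their Ensembl identifiers, and are 9 of the 52636 genes in the count files. Each had at least 42 reads in every library, so all 9 entered every comparison.

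GABAergic interneurons are local inhibitory neurons of the basolateral amygdala, where they restrain and time the firing of glutamatergic principal cells. They make GABA from glutamate with GAD67 and GAD65, the products of Gad1 and Gad2, and load it into synaptic vesicles with the transporter VGAT, the product of Slc32a1. Subclasses are separated by calcium-binding proteins (parvalbumin from Pvalb, calbindin from Calb1, calretinin from Calb2), by the peptide encoded by Vip, by the secreted glycoprotein reelin, and by Lamp5, a membrane protein of neurogliaform-type cells. Calb1, Calb2, Reln and Lamp5 are not restricted to inhibitory neurons and are also transcribed in some glutamatergic cells, and Gad1, Gad2 and Slc32a1 are shared with GABAergic projection neurons of the neighbouring striatum and central amygdala and with intercalated cells.

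The samples came from female mice of the inbred strain C57BL/6J and of B6D2F1N, a hybrid of the C57BL/6 and DBA/2 backgrounds. Mice lived in standard cages or, from postnatal day 77, had access to a playground for 1 h per day (enriched). All groups were trained from postnatal day 70 for a test of cognitive judgment bias, under restricted feeding, and the mice in standard housing were handled as a sham for the playground. Stained cells of the anterior and the posterior amygdala were collected by laser microdissection. The 35 libraries from 19 mice comprised 4 anterior and 4 posterior libraries of C57BL/6J mice in standard housing, 2 and 4 in enriched housing, 5 and 5 of B6D2F1N mice in standard housing, and 5 and 6 in enriched housing. Both portions were sequenced from 16 mice, 6 C57BL/6J and 10 B6D2F1N. Mice are numbered within strain and housing. The methods of the study assign the sections nearer to bregma to the posterior portion, which reverses their anatomical order. Which order the labels follow was not tested, and if they were exchanged the sign of every portion difference would change.

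The libraries held 16938534 to 27352623 counted reads (median 21409708). Levels are given as CPM, counts relative to the scaled total of the library (TMM). Both libraries of the B6D2F1N standard mouse 1, labelled female, held 0 reads of Xist and of the Y-linked genes examined, and results that rest on this mouse are also given without it. The anterior library of the B6D2F1N standard mouse 3 stood apart in 4 of the 9 genes, as described with them. In these bulk samples, fewer cells of a type and less RNA per cell cannot be told apart.

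The sequences before the start sites of Gad1 and Gad2, whose levels varied together between mice, and of Vip, which differed between the portions in both strains, are shown with the motifs found in them in capitals. They are the parts of RefSeq windows on GRCm38.p6 that precede the start and hold no GENCODE exon of the gene. All 3 are on the plus strand, written 5′ to 3′.
Gad1 (chr2:70561879-70562041, within the annotated gene and outside its exons): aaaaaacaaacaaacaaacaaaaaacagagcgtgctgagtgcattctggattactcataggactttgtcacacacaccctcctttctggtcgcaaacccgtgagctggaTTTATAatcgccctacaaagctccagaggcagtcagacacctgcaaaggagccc
Gad2 (chr2:22622077-22622204, before the annotated gene): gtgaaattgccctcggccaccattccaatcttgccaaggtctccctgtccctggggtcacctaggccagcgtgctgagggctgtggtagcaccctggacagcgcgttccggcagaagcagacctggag
Vip (chr10:5638968-5639217, before the annotated gene): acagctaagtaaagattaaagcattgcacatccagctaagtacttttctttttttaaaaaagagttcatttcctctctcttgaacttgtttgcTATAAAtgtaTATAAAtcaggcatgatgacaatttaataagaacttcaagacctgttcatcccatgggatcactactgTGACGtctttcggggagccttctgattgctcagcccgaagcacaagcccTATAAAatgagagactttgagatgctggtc

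The motifs searched on both strands were the TATA box TATAAA, the cAMP response element TGACGTCA, its half-site TGACG (which lies inside the full element), the homeodomain core TAATTA and the Sp1 box GGGCGG. In Vip the TATA box began at 157, 147 and 30 bases before the RefSeq start and the half-site at 79 bases before it. Gad1 held a TATA box on the minus strand, 141 bases before the start, and the stretch of Gad2 held none of the 5 motifs. Of 32851 windows of 250 bases, 12.4% held the TATA box, 17.8% the half-site, 1.55% the full element, 4.84% the homeodomain core and 32.7% the Sp1 box. The stretches of Gad1 and Gad2 were shorter, with 163 and 128 bases, so these shares are not a like-for-like background for them. A match is a description of the letters and not of a binding site.

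All 9 genes were transcribed in both portions, at levels per kilobase of exon that differed widely between genes. In the 16 anterior libraries Lamp5 had the highest median, 62.1 CPM per kb, followed by Gad1 (33.6 CPM per kb), Vip (26.5 CPM per kb), Pvalb (25.7 CPM per kb), Gad2 (16.7 CPM per kb), Calb2 (14.1 CPM per kb), Calb1 (10.5 CPM per kb), Slc32a1 (6.05 CPM per kb) and Reln (1.24 CPM per kb). In the 19 posterior libraries Calb2 was first, with 57.3 CPM per kb, followed by Lamp5 (42.2 CPM per kb), Gad1 (30.7 CPM per kb), Calb1 (25.4 CPM per kb), Pvalb (16.7 CPM per kb), Gad2 (16.5 CPM per kb), Vip (12.4 CPM per kb), Slc32a1 (6.96 CPM per kb) and Reln (0.673 CPM per kb). Neighbours in these orders had overlapping ranges over libraries, except posterior Slc32a1 and Reln. Within a library, Lamp5 was above Gad1 in 16 of 16 anterior libraries, while Calb2 was above Calb1 in 8 of 16.

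The 2 portions of each strain were compared by edgeR's quasi-likelihood test, in which the mouse was a block and p-values were adjusted over all genes tested (Benjamini-Hochberg). Differences are posterior minus anterior on the log2 scale. In C57BL/6J mice, 6 of the 9 genes passed an adjusted p of 0.05, while 3.64% of all 25751 genes did. The 4 lower genes in the posterior portion were Vip, Lamp5, Reln and Pvalb (2.1% of all genes were lower), and the 2 higher genes were Calb1 and Calb2 (1.54% of all genes were higher). In B6D2F1N mice, 2 of the 9 passed, while 4% of all 27761 genes did, with Vip lower (2.37% of all genes) and Calb2 higher (1.62% of all genes). The shares over all genes include genes with as few as 10 reads over the libraries of a comparison. Each of the 9 had at least 42 reads in every library, so these shares are not matched for level. The genes of GABA synthesis and vesicular loading passed in neither strain. The median difference of the 9 genes was -0.55 in C57BL/6J and -0.15 in B6D2F1N mice, beside 0.01 and 0.15 over all genes tested.

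**Figure D1:**
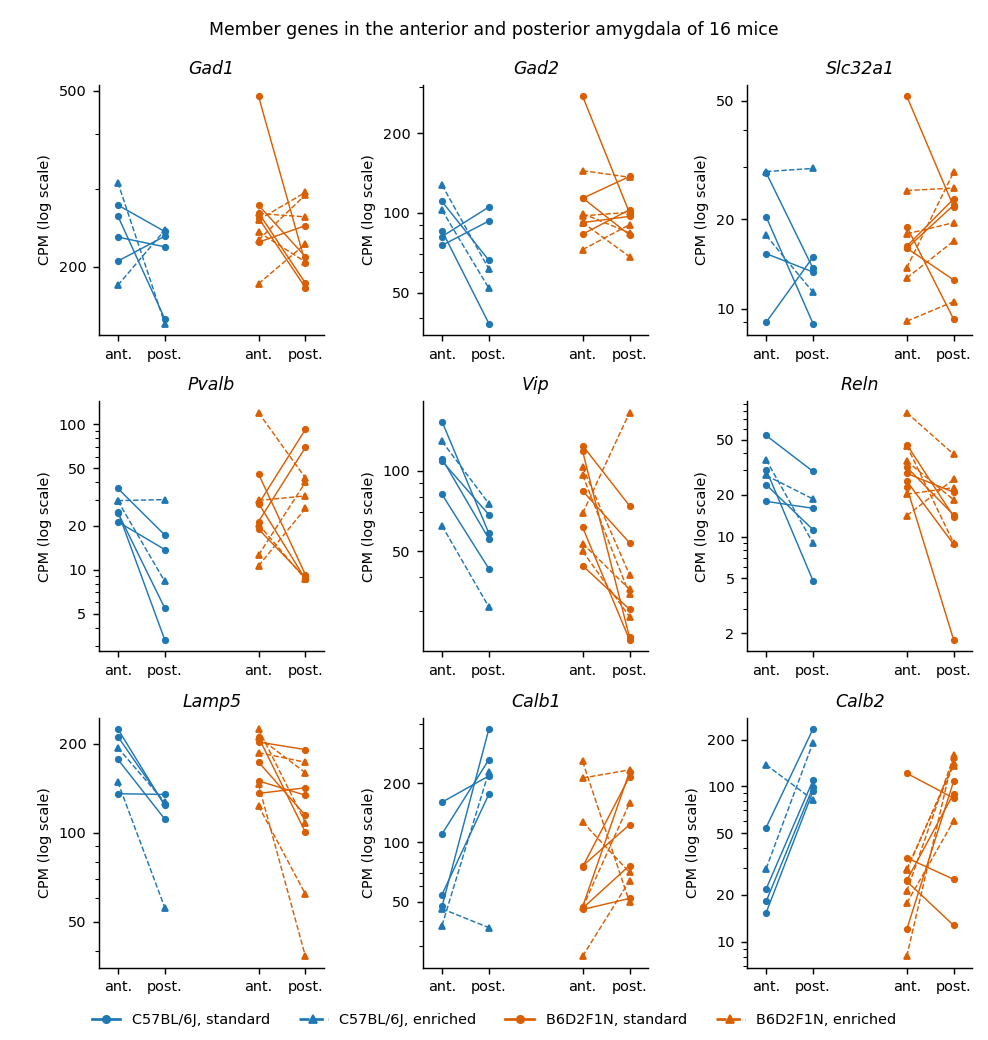
CPM (log axis) of each of the 9 genes in the anterior (ant.) and posterior (post.) library of each of 16 mice, joined by a line, with C57BL/6J in blue, B6D2F1N in orange, circles for standard and triangles for enriched housing. Vip fell in 6 of 6 C57BL/6J and 9 of 10 B6D2F1N mice, and Calb2 was higher posteriorly in 5 of 6 and 7 of 10.

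Gad1 measured 206.1 to 275.8 CPM in the anterior libraries of the 4 C57BL/6J mice in standard housing, and 181.8 and 310.0 CPM in the 2 in enriched housing. The 6 posterior libraries of these mice had 149.0 to 242.1 CPM, so the ranges overlapped, and Gad1 was lower in 4 of 6 mice. Its fitted difference was -0.25 (SE 0.18, adjusted p = 0.655 in edgeR's test). In B6D2F1N mice the anterior range was 183.2 to 485.4 CPM (median 256.6 CPM) and the posterior range 179.6 to 294.6 CPM (median 218.2 CPM), with a difference of -0.19 (SE 0.15, adjusted p = 0.592 in edgeR's test).

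Gad2 had anterior levels of 75.35 to 127.4 CPM and posterior levels of 38.18 to 105.2 CPM in C57BL/6J mice, again overlapping. The difference was -0.55 (SE 0.21, adjusted p = 0.226 in edgeR's test) and lower in 4 of 6 mice. In B6D2F1N mice both medians were alike, 98.37 CPM anteriorly and 98.43 CPM posteriorly, and 5 of 10 mice were lower posteriorly. Slc32a1 was the least abundant of the 3 genes of the GABA pathway. Its anterior range in C57BL/6J mice was 9.002 to 28.91 CPM (median 19.01 CPM) and its posterior range 8.921 to 29.63 CPM (median 13.47 CPM). The fitted Slc32a1 differences were -0.39 in C57BL/6J (SE 0.27, adjusted p = 0.611) and 0.04 in B6D2F1N mice (SE 0.22, adjusted p = 0.965), both from edgeR's test.

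The difference of Vip between the portions had the smallest spread over C57BL/6J mice of the 9 genes (SD 0.25). Its anterior levels in C57BL/6J mice were 108.9, 153.1, 81.70 and 111.1 CPM in the standard mice 1 to 4 and 62.35 and 129.0 CPM in the enriched mice 1 and 3. In the same order, the posterior levels were 68.56, 58.41, 43.02 and 55.66 CPM, and 30.93 and 75.45 CPM. Vip was lower posteriorly in 6 of 6 mice although the ranges overlapped, and the fitted level was 1.94-fold lower (log2 difference -0.96, SE 0.16, adjusted p = 0.00108 in edgeR's test). This call held in all 6 fits that left out a mouse. In B6D2F1N mice the anterior median was 76.8 CPM (44.19 to 124.4 CPM) and the posterior median 35.26 CPM (23.3 to 165.3 CPM). Vip was lower in 9 of 10 of these mice, by -0.87 (SE 0.24, adjusted p = 0.0471 in edgeR's test), and the exception was the enriched mouse 2, whose anterior library had 69.43 CPM and whose posterior library had 165.3 CPM. The call in B6D2F1N mice was lost in 9 of 10 fits that left out a mouse, with adjusted p up to 0.123. Only 2 of 7 other alternatives kept it. Among those that lost it in edgeR's test were DESeq2's size factors (adjusted p = 0.05025), robust empirical Bayes (0.0583), filterByExpr (0.0644) and no mouse block (0.243). Without the standard mouse 1, which held 0 reads of Xist and of the Y-linked genes examined, the difference was -0.89 (adjusted p = 0.0784 in edgeR's test).

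Lamp5 was the one gene whose portion ranges did not overlap in C57BL/6J mice. The 6 anterior libraries had 135.7 to 224.7 CPM (median 185.6 CPM) and the 6 posterior ones 55.92 to 134.9 CPM (median 124.4 CPM). The difference was -0.72 (SE 0.17, adjusted p = 0.0203 in edgeR's test), and it kept its call in 2 of 6 fits without a mouse. It lost its call with no mouse block (adjusted p = 0.084 in edgeR's test). In B6D2F1N mice the medians were 180.3 CPM anteriorly and 124.4 CPM posteriorly, and 9 of 10 mice were lower posteriorly. That difference of -0.62 (SE 0.17) missed the threshold at an adjusted p of 0.0506 in edgeR's test. It passed with DESeq2 (adjusted p = 0.018), with no minimum count (0.023) and with robust empirical Bayes (0.0465), but not under 4 other alternatives, and in 1 of 10 fits without a mouse. With the number of genes detected as a covariate it was -0.21 with an adjusted p of 0.802 in edgeR's test. That number was higher posteriorly in every B6D2F1N mouse with both portions.

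Reln showed larger differences with more spread. In C57BL/6J mice it measured 17.94 to 53.59 CPM in the anterior (median 29 CPM) and 4.793 to 29.51 CPM in the posterior portion (median 13.59 CPM), and it was lower posteriorly in 6 of 6 mice. The level was 2.3-fold lower (log2 difference -1.20, SE 0.29, adjusted p = 0.0214 in edgeR's test), and the call held in 3 of 6 fits without a mouse. It was lost with no mouse block (adjusted p = 0.123 in edgeR's test). In B6D2F1N mice the anterior levels were 14.16 to 78.37 CPM and the posterior levels 1.795 to 39.22 CPM, lower in 8 of 10 mice. Reln differed there by -1.14 (SE 0.32, adjusted p = 0.0562 in edgeR's test; 0.013 with DESeq2).

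Pvalb was lower in the posterior portion of C57BL/6J mice. Its anterior levels were 36.27, 21.38, 24.72 and 25.12 CPM in the standard mice 1 to 4 and 29.88 and 29.76 CPM in the enriched mice 1 and 3. The posterior levels were 17.35, 13.78, 5.456 and 3.299 CPM, and 30.37 and 8.326 CPM, so that the enriched mouse 1 alone showed no decrease. The fitted level was 2.67-fold lower (log2 difference -1.42, SE 0.32, adjusted p = 0.0153 in edgeR's test). The call held in 4 of 6 fits without a mouse. It was lost without the standard mouse 3 (adjusted p = 0.0701), without the standard mouse 4 (adjusted p = 0.0752) and with no mouse block (adjusted p = 0.157), all in edgeR's test. In B6D2F1N mice 5 of 10 were higher and 5 lower, between -2.29 and 1.70, with a fitted difference of -0.14 (SE 0.42, adjusted p = 0.918 in edgeR's test). With the number of genes detected as a covariate, which was higher posteriorly in every B6D2F1N pair, the difference was -1.41 (adjusted p = 0.189). It was -1.29 in C57BL/6J mice under that covariate, and 0.01 in B6D2F1N mice with no mouse block (all in edgeR's test). The difference between the strains in this effect, fitted without that covariate, was 1.27 (SE 0.61, unadjusted p = 0.0468 and adjusted p = 1 in edgeR's test). No gene passed in the test of portion by strain (0% of 29437 genes), so a strain-dependent portion effect was not shown for Pvalb.

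Calb1 and Calb2 moved the other way. Calb1 in C57BL/6J mice rose from 37.93 to 159.9 CPM in the anterior (median 50.92 CPM) to 37.02 to 375.8 CPM in the posterior portion (median 223 CPM), higher in 5 of 6 mice. The fitted level was 2.73-fold higher (log2 difference 1.45, SE 0.33, adjusted p = 0.0165 in edgeR's test). It missed the threshold with DESeq2 (adjusted p = 0.0537). In edgeR's test it missed it narrowly with filterByExpr (adjusted p = 0.05 after rounding). Robust empirical Bayes (adjusted p = 0.195) and no mouse block (adjusted p = 0.0688) also lost the call in edgeR's test. The call held in 4 of 6 fits without a mouse. In B6D2F1N mice the difference was 0.59 (SE 0.33, adjusted p = 0.417 in edgeR's test), with 8 of 10 mice higher.

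Calb2 had the largest difference of the 9 genes in both strains. Its anterior levels in C57BL/6J mice were 54.32, 15.37, 21.84 and 18.15 CPM in the standard mice 1 to 4 and 137.6 and 29.51 CPM in the enriched mice 1 and 3. The posterior levels were 234.1, 93.07, 109.4 and 98.92 CPM, and 81.83 and 191.4 CPM. The enriched mouse 1 was the exception, with a lower posterior level. Calb2 was 3.99-fold higher (log2 difference 2.00, SE 0.35, adjusted p = 0.0019 in edgeR's test), with 6 of 6 calls kept when a mouse was left out. It missed the threshold with robust empirical Bayes (adjusted p = 0.0812) and with no mouse block (adjusted p = 0.0837), both in edgeR's test. In B6D2F1N mice it rose from a median of 24.64 CPM (8.061 to 121.3 CPM) to 98.92 CPM (12.73 to 160.3 CPM). All 5 enriched mice were higher posteriorly, as were 2 of the 5 standard mice, and the 3 others were lower. The fitted difference was 1.71 (SE 0.45, adjusted p = 0.0365 in edgeR's test), and the call held in 3 of 10 fits without a mouse. Without the standard mouse 1 it was 1.53 with an adjusted p of 0.092 in edgeR's test. The dependence of the Calb2 difference on housing was 0.95 (SE 0.62, adjusted p = 1 in edgeR's test), and 0% of 29437 genes passed in the test of portion by housing.

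**Figure D2:**
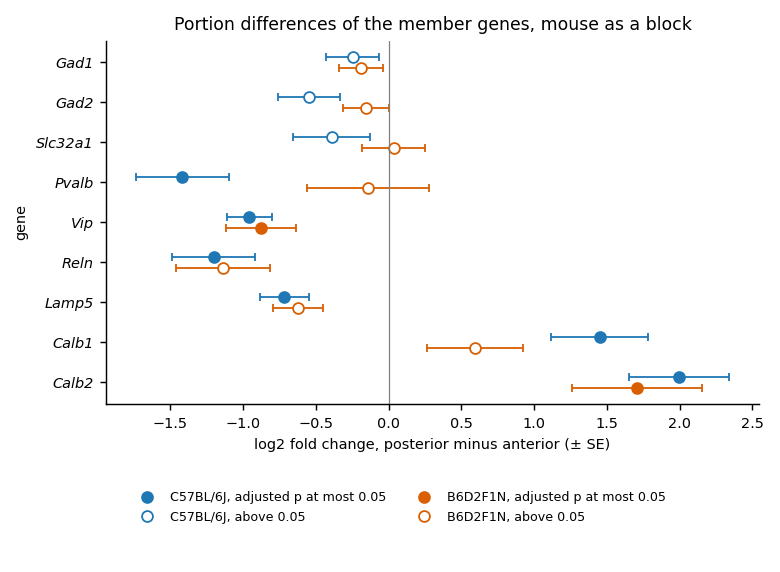
Fitted log2 differences (posterior minus anterior, bars ± SE) of the 9 genes in 6 C57BL/6J (blue) and 10 B6D2F1N mice (orange), filled where the adjusted p was at most 0.05. Gad1, Gad2 and Slc32a1 lie within 0.55 of 0, while Calb2 reaches 2.00 and 1.71.

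Other transcripts moved with the portions. Of 6 pan-neuronal genes, 3 were lower posteriorly in C57BL/6J and 4 in B6D2F1N mice, among them Syt1, a calcium sensor of synaptic vesicles (-0.94 and -1.0). Summed levels, here and below, cover all libraries (6 anterior and 8 posterior of C57BL/6J, 10 and 11 of B6D2F1N mice). The calls use only the mice with both portions. The summed level of the pan-neuronal list was 6161 to 10810 CPM in anterior and 4460 to 7105 CPM in posterior libraries of C57BL/6J mice, and 6136 to 11130 CPM and 3728 to 7190 CPM in B6D2F1N mice. Of 6 choroid plexus genes, 4 were higher posteriorly in C57BL/6J and 6 in B6D2F1N mice, with Ttr, the transthyretin gene, at 6.46 and 7.48. The choroid plexus sum had medians of 9.36 CPM anteriorly and 673 CPM posteriorly in C57BL/6J mice, and of 15.2 and 1782 CPM in B6D2F1N mice. The sum of 5 meningeal fibroblast genes had medians of 57.7 and 1156 CPM in C57BL/6J and of 55.2 and 474 CPM in B6D2F1N mice, and the 1 of them that passed in each strain was Dcn, the decorin gene (5.80 and 2.97).

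Of 6 ependymal genes, 2 were higher posteriorly in C57BL/6J and 5 in B6D2F1N mice, among them Tmem212 (7.40 and 6.62) and Ccdc153 (4.28 and 6.22), and the median of their sum was 10.6 CPM anteriorly and 33.8 CPM posteriorly in C57BL/6J and 11.7 and 43.7 CPM in B6D2F1N mice. Of 5 genes of hippocampal principal cells, 2 were higher in C57BL/6J (C1ql2 with 4.70 and Spink8 with 0.90) and 1 in B6D2F1N mice (Dsp with 6.09). The hippocampal sum had medians of 37.4 and 85.7 CPM in C57BL/6J and of 38 and 68.6 CPM in B6D2F1N mice. Cajal-Retzius cells, which also transcribe Reln and Calb2, were represented by 4 genes. Of the 3 tested in C57BL/6J mice 0 passed with edgeR (1 with an unadjusted p under 0.05, 0 with DESeq2), and in B6D2F1N mice 2 of 4 were higher, Trp73 (4.59) and Ebf3 (5.82), at summed medians of 0.024 CPM anteriorly and 3.86 CPM posteriorly. Of 7 astrocyte genes, Gfap (1.38), Gja1 (0.73) and Slc1a3 (0.61) were higher in C57BL/6J mice, while in B6D2F1N mice Gfap was higher (1.93) and Slc1a2 lower (-0.66).

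Of 16 genes of striatal and central amygdala projection neurons, Drd1 (-1.28) and Scn4b (-4.46) were lower posteriorly in C57BL/6J mice, and 0 passed with edgeR in B6D2F1N mice (3 with an unadjusted p under 0.05, 0 with DESeq2). Of 6 microglial genes, 0 passed with edgeR in C57BL/6J mice (1 with an unadjusted p under 0.05, 1 with DESeq2) and Aif1 was lower in B6D2F1N mice (-0.90). Of 3 intercalated cell and 8 oligodendrocyte genes, 0 passed with edgeR in either strain, 0 had an unadjusted p under 0.05 and DESeq2 called 0. Of 6 endothelial genes 0 passed with edgeR in either strain, with 0 and 2 at an unadjusted p under 0.05 and 0 and 2 called by DESeq2 in C57BL/6J and B6D2F1N mice. The part of these cells and tissues in the differences of the 9 genes was not tested.

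To set the 9 genes against the neuronal transcripts of the same library, each level was divided by the pan-neuronal sum, a comparison chosen after the data were seen. Relative to that sum, Gad1 was higher posteriorly in 5 of 6 C57BL/6J (mean log2 difference 0.50 ± 0.37 SD) and in 9 of 10 B6D2F1N mice (0.65 ± 0.86 SD). Vip was lower in 4 of 6 and 5 of 10 mice on this scale, with mean differences of -0.21 ± 0.55 (SD, n = 6) and -0.02 ± 1.03 (SD, n = 10). Calb2 was higher in 5 of 6 and 9 of 10 mice, by 2.65 ± 1.8 (SD, n = 6) and 2.5 ± 1.97 (SD, n = 10). Relative to the sum of Gad1 and Gad2, Lamp5 was lower in 6 of 6 C57BL/6J mice (-0.40 ± 0.37 SD), and Vip was lower in 5 of 6 and 8 of 10 mice. None of the 34 ratios tested passed the correction, with adjusted p of at least 0.141 (exact two-sided sign-flip permutation tests). With 6 mice such a test cannot give an unadjusted p under 0.0312.

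Among 32 other genes of interneuron subclasses, 6 were lower and 1 higher posteriorly in C57BL/6J, and 7 lower and 1 higher in B6D2F1N mice. Satb1, a chromatin organiser of medial ganglionic eminence interneurons, differed by -2.37 (SE 0.20) in C57BL/6J and -2.06 (SE 0.32) in B6D2F1N mice. Npy, the gene of neuropeptide Y, differed by -1.67 and -1.33. Cnr1, the cannabinoid receptor of Cck cells, differed by -0.90 and -1.26 and passed in both strains, as did Ndnf, a marker of neurogliaform cells, with -1.35 and -2.33. Higher genes were Htr3a, a serotonin receptor channel, in C57BL/6J (1.54) and Tac1, a tachykinin precursor, in B6D2F1N mice (1.17). The median of the list was -0.07 and -0.19, beside 0.01 and 0.15 over all genes. Of 14 transcription factors of the GABAergic lineage, 0 passed with edgeR in either strain (medians 0.09 and 0.09), although 3 and 4 had an unadjusted p under 0.05 and DESeq2 called 2 and 3. Of 7 genes of GABA uptake and breakdown only the glial transporter gene Slc6a11 passed, in B6D2F1N mice (0.93). Of 10 glutamatergic genes, 4 were lower in each strain, including Tbr1 (-2.25 and -2.38) and Slc17a7 (-1.22 and -1.32), and Slc17a6, the vesicular glutamate transporter VGLUT2, was higher (1.58 and 1.38).

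Strains were compared within each housing and portion, as B6D2F1N minus C57BL/6J. None of the 9 genes passed in the 4 comparisons with edgeR's quasi-likelihood test, in which 0.37% of all genes passed in the standard anterior, 0.373% in the standard posterior, 0.0639% in the enriched anterior and 0.394% in the enriched posterior comparison. With an unadjusted p under 0.05 there were 1, 2, 2 and 0 of the 9 genes, in that order, beside 9%, 10.3%, 4.33% and 9.11% of all genes, and DESeq2 called 0 in each. Gad1 differed by between -0.04 and 0.32 in the 4 comparisons. The smallest p belonged to Calb2 in the enriched anterior comparison, where the 2 C57BL/6J mice had 29.51 and 137.6 CPM and the 5 B6D2F1N mice 8.061 to 29.31 CPM. The groups did not overlap, and the difference of -1.98 (SE 0.53) had an adjusted p of 0.799 in edgeR's test. With no minimum count it passed (adjusted p = 0.0192 in edgeR's test). The difference was -0.45 without the C57BL/6J enriched mouse 1, which held the 137.6 CPM, and between -1.77 and -2.72 in the fits without another mouse. In the standard posterior comparison Pvalb measured 3.299 to 17.35 CPM in 4 C57BL/6J and 8.631 to 92.21 CPM in 5 B6D2F1N mice, with a difference of 1.95 (SE 0.76, adjusted p = 0.462 in edgeR's test). Of the further lists, the striatal and central amygdala gene Scn4b passed in the standard anterior comparison (2.39, SE 0.35, adjusted p = 0.00286 in edgeR's test).

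Housing was compared within each strain and portion, as enriched minus standard. None of the 9 genes passed in the 4 comparisons with edgeR's test. Of all genes, 0% passed in the anterior and 0.0163% in the posterior portion of C57BL/6J mice, and 0% in either portion of B6D2F1N mice. With an unadjusted p under 0.05 there were 2, 3, 1 and 2 of the 9 genes in the C57BL/6J anterior, C57BL/6J posterior, B6D2F1N anterior and B6D2F1N posterior comparisons, beside 6.2%, 10.3%, 6.3% and 6.59% of all genes. DESeq2 called 0, 1, 0 and 0, and the 1 gene was Slc32a1.

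In the posterior portion of C57BL/6J mice, 3 genes had larger differences between housing groups. Pvalb measured 30.37, 117.3, 8.326 and 46.35 CPM in the enriched mice 1 to 4 and 17.35, 13.78, 5.456 and 3.299 CPM in the standard mice 1 to 4. The enriched mouse 3 lay within the standard range and the other enriched mice above it. The difference was 2.35 (SE 0.65, adjusted p = 0.26 in edgeR's test). Slc32a1 had 29.63, 37.43, 11.37 and 50.59 CPM in the enriched and 8.921 to 14.93 CPM in the standard mice, a difference of 1.34 (SE 0.37, adjusted p = 0.265 with edgeR and 0.0473 with DESeq2). Calb1 ran the other way, with 37.02, 58.25, 228.7 and 78.12 CPM in the enriched and 175.7 to 375.8 CPM in the standard mice (-1.38, SE 0.44, adjusted p = 0.351 in edgeR's test). Each of the 8 mice was left out in turn. Without the enriched mouse 3, all 3 genes passed in edgeR's test, Pvalb with 2.71 (adjusted p = 0.0305), Slc32a1 with 1.63 (adjusted p = 0.0138) and Calb1 with -2.15 (adjusted p = 0.00734), in a fit that called 172 genes in all (0.717% of those tested). In the 7 other fits edgeR called 0 of the 9 genes and 0 genes in all. Gad1 (0.14) and Gad2 (0.29) differed little between the same mice. The summed level of 8 oligodendrocyte genes was 17850 to 27970 CPM in the enriched and 8026 to 12570 CPM in the standard mice of this comparison. Of these genes, Mbp passed in the fit with all 8 mice (1.97, adjusted p = 0.037 in edgeR's test). The part of oligodendrocyte transcripts in the differences was not tested.

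The effect of housing was not shown to depend on strain for any of the 9 genes, since 0% of 26353 genes passed anteriorly and 0% of 27871 posteriorly in the tests of strain by housing. The unadjusted p was under 0.05 for 2 of the 9 genes anteriorly and 1 posteriorly, beside 5.98% and 8.38% of all genes, and DESeq2 called none of the 9 in either. For Calb1 in the anterior portion the interaction was 2.35 (SE 0.80), for Calb2 -2.68 (SE 0.88), both with an adjusted p of 0.814, and for Pvalb in the posterior portion -2.85 (SE 1.02, adjusted p = 0.491), all in edgeR's test.

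**Figure D3:**
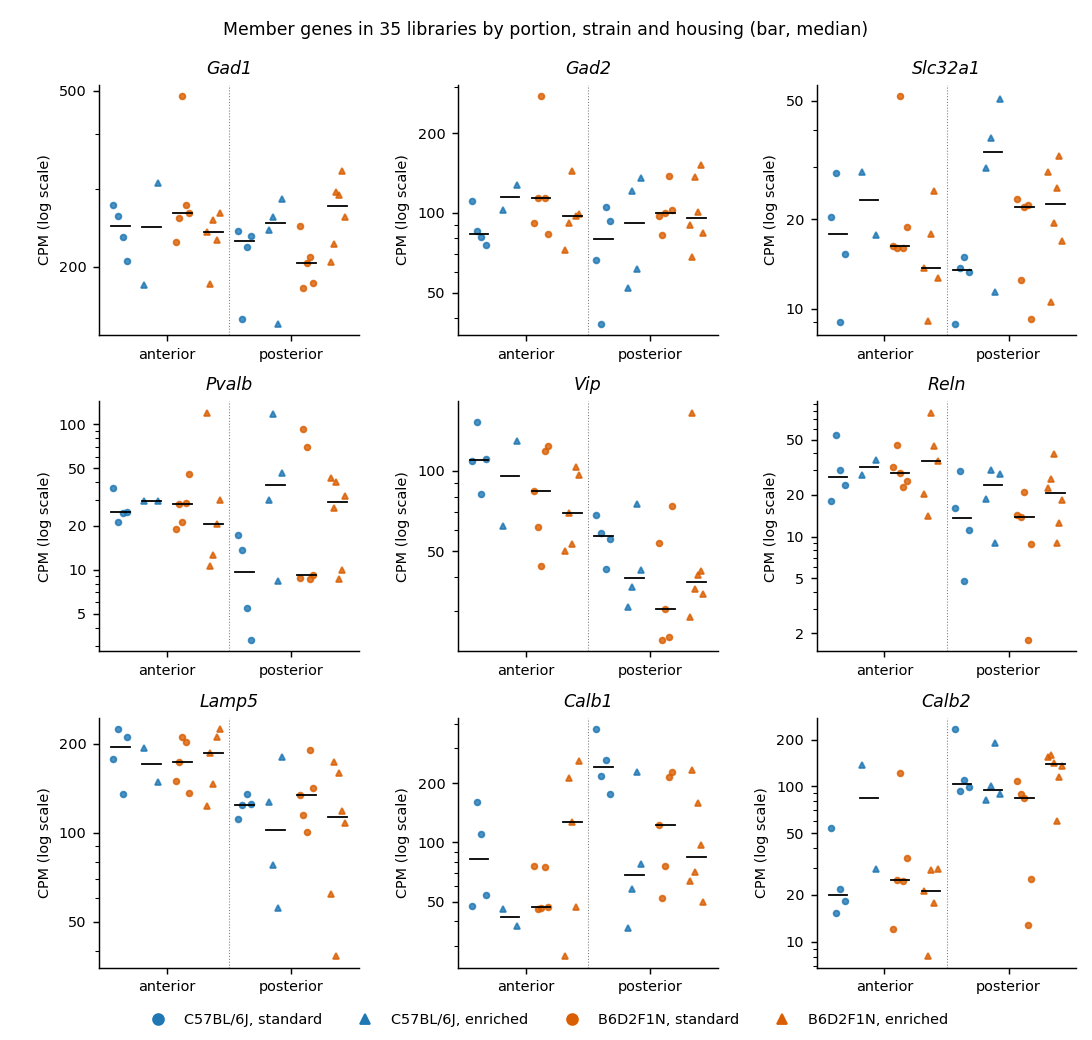
CPM (log axis) of the 9 genes in all 35 libraries, with the median of each group as a bar. Within each portion the groups are, from left to right, C57BL/6J standard, C57BL/6J enriched, B6D2F1N standard and B6D2F1N enriched. Posterior Pvalb spans 3.299 to 117.3 CPM in C57BL/6J mice, and the highest anterior Gad1 point, 485.4 CPM, is the B6D2F1N standard mouse 3.

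The genes differed in how far they followed the number of genes with at least 1 count in a library, which was 18580 to 23576 in anterior and 21109 to 25531 in posterior libraries. These 18 relations were examined after the data were seen, with permutation tests. Calb1 was higher in libraries with fewer genes detected, with a Pearson's r of -0.90 in 16 anterior libraries (adjusted p = 0.00018, Spearman's rho -0.83, adjusted p = 0.00306) and of -0.71 in 19 posterior libraries (adjusted p = 0.0066, rho -0.74, adjusted p = 0.00384). Without the 2 libraries farthest from the median of genes detected, r was -0.79 and -0.70, and with the group means removed it was -0.89 and -0.81. Vip gave -0.69 in the posterior libraries (adjusted p = 0.0066, rho -0.75, adjusted p = 0.0036, -0.64 without 2 libraries, -0.68 with the group means removed) and -0.26 in the anterior ones (adjusted p = 0.503, rho -0.26, adjusted p = 0.555). Pvalb ran in the other direction, with 0.61 in the anterior (adjusted p = 0.0433) and 0.56 in the posterior libraries (adjusted p = 0.0433), and its rho of 0.57 and 0.56 missed the threshold (adjusted p = 0.0805 and 0.0648). For Pvalb r was 0.64 and 0.38 without 2 libraries. Calb2 reached 0.59 in the anterior libraries (adjusted p = 0.0492, rho 0.55 with adjusted p = 0.0852, 0.59 without 2 libraries). Gad1, Gad2, Slc32a1, Reln and Lamp5 missed the threshold in both portions.

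The portion fits were repeated with the number of genes detected as a covariate. This number was higher posteriorly in every B6D2F1N mouse with both portions, while C57BL/6J mice went both ways. In B6D2F1N mice the covariate therefore overlaps with the portion, and the 2 cannot be fully told apart. In C57BL/6J mice, Vip, Lamp5, Pvalb, Calb1 and Calb2 kept their calls and Reln gave -1.12 with an adjusted p of 0.0558 in edgeR's test. In B6D2F1N mice, Vip (-0.96, adjusted p = 0.269) and Calb2 (1.21, adjusted p = 0.505) lost their calls, while Calb1 passed with 1.96 (adjusted p = 0.00078), all in edgeR's test. The number of genes called in all in B6D2F1N mice was 373 with this covariate and 1110 without it.

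**Figure D4:**
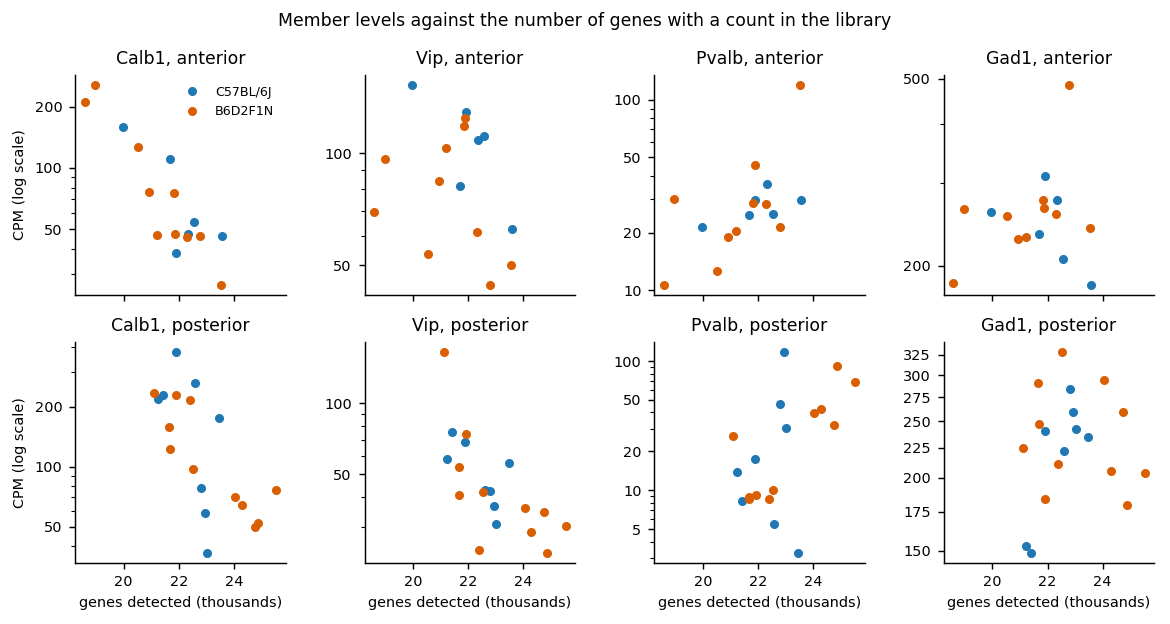
CPM (log axis) of Calb1, Vip, Pvalb and Gad1 against the number of genes with at least 1 count, each point a library, for 16 anterior (top) and 19 posterior libraries (bottom). Calb1 falls with the number of genes detected in both portions (r = -0.90 and -0.71) and Gad1 has no such trend (0.18 and 0.12).

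Between mice of the same portion, the genes of GABA synthesis varied together. Deviations of log2 CPM from the mean of each strain and housing group were correlated over 36 pairs of genes per portion, with permutation tests. The deviations were permuted freely over the libraries of a portion, with no allowance for the group means removed. The p-values are therefore likely too small and are best read as a ranking of the pairs. In the 16 anterior libraries, 1 pair passed the correction, Gad1 and Gad2 (r = 0.78, adjusted p = 0.023, rho = 0.77, adjusted p = 0.0238). The r was 0.55 without the 2 farthest mice, 1 of which was the B6D2F1N standard mouse 3. In the 19 posterior libraries 5 pairs passed by Pearson's r. Gad1 and Gad2 gave 0.69 (adjusted p = 0.0128, rho 0.69, adjusted p = 0.032, 0.57 without 2 mice). Gad1 and Slc32a1 gave 0.60 (adjusted p = 0.0488, rho 0.54, adjusted p = 0.109, 0.53 without 2 mice). Pvalb and Reln gave 0.70 (adjusted p = 0.0113, rho 0.74, adjusted p = 0.0216, 0.67 without 2 mice). Vip and Calb1 gave 0.71 (adjusted p = 0.0113, rho 0.66, adjusted p = 0.0349, 0.60 without 2 mice), and both genes also followed the number of genes detected, as given above. Slc32a1 and Vip gave -0.62 (adjusted p = 0.0448), but rho was -0.31 (adjusted p = 0.498) and r fell to -0.32 without 2 mice, so this relation rests on those mice. Slc32a1 missed the correction with both other genes of the pathway in the anterior libraries, where r fell from 0.53 to 0.36 with Gad1 (rho 0.39) and from 0.60 to 0.20 with Gad2 (rho 0.34) without 2 mice, and with Gad2 in the posterior ones (r = 0.53, adjusted p = 0.0966).

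**Figure D5:**
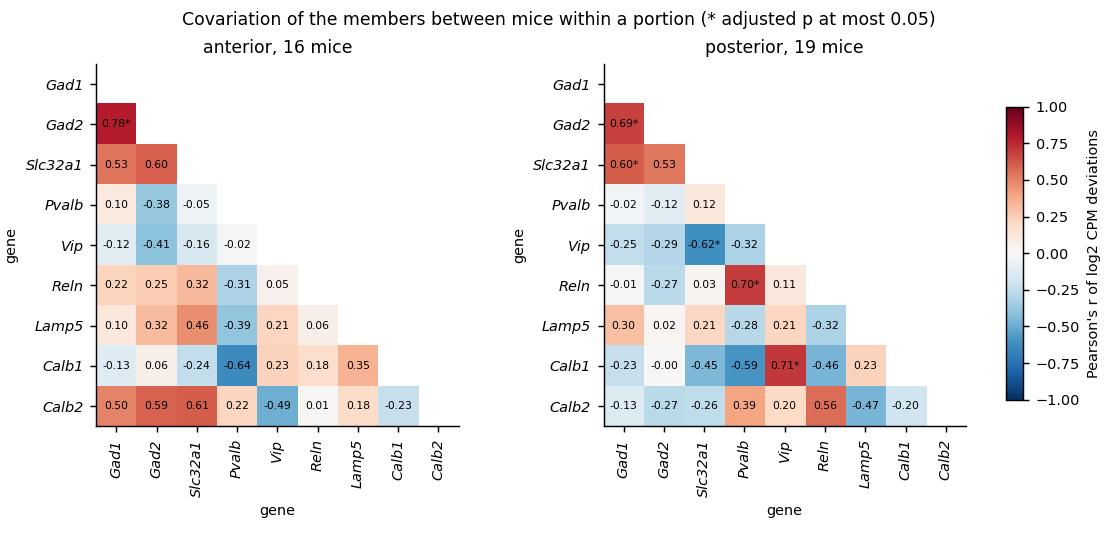
Pearson's r of the log2 CPM deviations of each pair of the 9 genes from their strain and housing means, in 16 anterior (left) and 19 posterior libraries (right), with * where the adjusted p was at most 0.05. All 6 values among Gad1, Gad2 and Slc32a1 are positive (0.53 to 0.78) and 3 of them carry a *. The p-values are likely too small, since the tests made no allowance for the group means removed.

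The genes whose log2 CPM was most like that of a member over all 35 libraries were searched among 13396 expressed genes. These values are a description, since the libraries come from 19 mice and share depth and portion. For Gad1 the first was Gad2 (r = 0.70), and for Gad2 it was Rgs17 (0.81), a regulator of G-protein signalling. For Pvalb the first 3 were Aldh1a1 (0.87), an aldehyde dehydrogenase, Cox6a1 (0.86), a subunit of cytochrome c oxidase, and Ldhb (0.85), a subunit of lactate dehydrogenase. For Lamp5 they were Htr1f (0.85), Pcmt1 (0.77) and Npy5r (0.76), Htr1f and Npy5r being receptors for serotonin and neuropeptide Y. For Slc32a1 the closest was Aldh5a1 (0.61), which acts in GABA breakdown, for Reln Dzip1 (0.79), for Vip Acp7 (0.83), for Calb1 Spg21 (0.91) and for Calb2 Zfp423 (0.82). No member other than Gad1 and Gad2 appeared among the 3 closest genes of another member.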

How the data were processed

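The authors sequenced mRNA libraries from laser-captured amygdala cells as single reads of 72 bases. Per the submitters' processing notes and the methods of the study, reads were demultiplexed with bcl2fastq2, trimmed with Trimmomatic 0.38, aligned to GRCm38 with HISAT2 2.1.0, sorted with SAMtools 1.8 and counted with HTSeq 0.11.2. The deposited values are read counts per Ensembl gene, neither normalized nor filtered. The annotation release and the strand setting of the counting are not given in the sources used here, so reads of Gad1, Slc32a1 and Reln cannot be separated from those of genes on the opposite strand, which held at most 135 counts each over all libraries. HTSeq's totals of unassigned reads stayed out of library sizes. Reads overlapping no gene were 14.0 to 22.8% of the reads tallied in anterior and 13.7 to 26.4% in posterior libraries. The share was higher posteriorly in most mice with both portions, and its part in the portion differences was not tested. A count of 0 allows up to 3 counts, and this covers counting error only, since reads carry no molecular identifiers.

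Positions came from GENCODE M21 (52489 identifiers found) and promoter windows from RefSeq on GRCm38.p6, which matched 7 of the 9 genes. Genes with at least 10 counts over the libraries of a comparison were tested with edgeR 4.0.16 in R 4.3.3 (TMM, quasi-likelihood F test, Benjamini-Hochberg adjustment over all genes of the comparison, threshold 0.05). The portions of each strain were fitted with the mouse as a block. Both libraries of a pair come from the same mouse, and the correlation of their deviations from group means, taken across 13397 genes (which are not independent replicates), had a median r of 0.07 over 16 mice (-0.13 to 0.20). Strains and housing groups were fitted without covariates, and 4 interactions were tested. Log2 CPM carries a prior count of 2. Permutation tests of correlations used 100000 resamples, two-sided. Of the 595 pairs of libraries, 0 held identical counts. In the tests on simulated data, unchanged genes made up more of the calls than the threshold sets, most of all with the mouse as a block.

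The named genes were the 9 members in every comparison and up to 3 genes in each direction of each further list in the portion comparisons. Also named were genes of these lists that passed in the strain and housing comparisons (at most 3 a list) and the 3 genes most like each member. The members, the lists and the rules were chosen with earlier results of these data known. As a departure from this rule, some genes of the further lists that passed are given by their counts alone. Alternatives were DESeq2 1.42.0, its size factors in edgeR, filterByExpr, no minimum count, robust empirical Bayes, no mouse block, 1 fit of 4 groups, and each mouse left out in turn. The number of genes detected as a covariate and the ratios within a library were added after the data were seen. Behavioural classes were not used here.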

Additional observations from a re-analysis of the deposited data

Results flagged for a closer look

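Dixon's criterion is met by chance in about 1 in 20 groups of independent, normally distributed values. The sets here hold CPM without logs and share libraries, so that rate is not a background for their number. In the groups of 4 to 6 mice, 9 of 63 sets of values had 1 mouse far from the others by this criterion. In 4 of them it was the anterior library of the B6D2F1N standard mouse 3, with 485.4 CPM of Gad1 (next highest 275.6), 275.6 CPM of Gad2 (next 113.8), 51.77 CPM of Slc32a1 (next 18.88) and 121.3 CPM of Calb2 (next 34.63). The same library had the highest summed levels of the 3 intercalated cell genes (290.3 CPM, against 36.48 to 116.1 CPM in the other anterior B6D2F1N libraries) and of the striatal and central amygdala genes (1671 CPM, against 440.7 to 1107 CPM), and the lowest pan-neuronal sum of them (6136 CPM). Whether these move with the members for a shared reason was not tested.

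Pvalb stood at 120.3 CPM in the anterior library of the B6D2F1N enriched mouse 1 (next 29.97), which also held 939.8 CPM of the choroid plexus genes, against 7.095 to 53.13 CPM in the other anterior B6D2F1N libraries. Vip stood at 165.3 CPM in the posterior library of the B6D2F1N enriched mouse 2 (next 42.17), the posterior library with the fewest genes detected, 21109. Calb2 was far above the other mice of its group in the C57BL/6J standard mouse 1 in both portions (54.32 CPM against 21.84 in the anterior, 234.1 CPM against 109.4 in the posterior portion) and in the posterior library of the C57BL/6J enriched mouse 3 (191.4 CPM, next 99.9).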

How the results depend on the processing

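Of 1584 values of single members under alternatives, 1522 kept their direction and their side of the threshold, or were uncalled in both (84 uncalled values changed sign). Another 45 lost and 17 gained a call, and 0 called values reversed. Members called between the portions numbered 6 in C57BL/6J mice, and also 6 with DESeq2's size factors and with no minimum count. They numbered 5 with DESeq2, 5 with filterByExpr, 4 with robust empirical Bayes, 5 with genes detected as a covariate and 1 with no replicate block. Without 1 mouse they numbered 2 to 6, with the lowest number without the standard mouse 4. In B6D2F1N mice they numbered 2, 4 with DESeq2, 1 with DESeq2's size factors, 0 with filterByExpr, 4 with no minimum count, 1 with robust empirical Bayes, 1 with genes detected as a covariate, 1 with no replicate block and 0 to 2 without 1 mouse. With no minimum count, 1 member passed for strain in the enriched anterior comparison (Calb2), 2 for housing in C57BL/6J anterior (Calb1 with -1.16, adjusted p = 0.00706, and Calb2 with 1.60, adjusted p = 2.07e-06, in edgeR's test) and 1 in C57BL/6J posterior (Pvalb). DESeq2 gave 1 in the last (Slc32a1), and leaving out 1 mouse gave 0 to 3. That Calb2 difference had an adjusted p of 0.741 in edgeR's test with the minimum count, and it rests on 2 enriched libraries of 29.51 and 137.6 CPM. It was 0.075 without the enriched mouse 1 and 0.59 with genes detected as a covariate (log2). The cause of these changes was not tested.

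Counts over all genes moved as follows. With DESeq2 they were 1535 and 1994 for the portions in C57BL/6J and B6D2F1N, 254, 392, 137 and 342 for strain in standard anterior, standard posterior, enriched anterior and enriched posterior, 100, 319, 8 and 13 for housing in C57BL/6J anterior and posterior and B6D2F1N anterior and posterior, and 1, 3 and 15 for portion by housing and for strain by housing in the anterior and posterior portion. With no minimum count they were 57 for strain in enriched anterior, 274 and 112 for housing in C57BL/6J anterior and posterior, and 2 for portion by strain. With genes detected as a covariate they were 373 for the portions in B6D2F1N, 165 for strain in enriched posterior and 14 for housing in C57BL/6J posterior. With 1 fit of 4 groups they were 44 for strain in enriched anterior and 0 for housing in C57BL/6J posterior. Without 1 mouse they were 602 to 1070 for the portions in C57BL/6J, 59 to 166 for strain in standard posterior, 1 to 15 for strain in enriched anterior, 0 to 172 for housing in C57BL/6J posterior and 0 to 10 for housing in B6D2F1N posterior. Where a group was left with 1 mouse, that mouse was assumed to vary like the other group. With 2 to 6 mice per group, a p above the threshold does not show that levels were equal.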
